A study of Mus musculus with 4 samples.

Results

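Smooth muscle cells of the mouse aorta were ranked by their content of 4 immediate-early transcripts, Fos, Fosb, Egr1 and Atf3, and the cells at the top of that ranking are described here. A droplet barcode, taken as a cell, entered the ranking if it had at least 1000 detected genes, at most 10% of its unique molecular identifiers (UMIs, the counted transcript molecules) from mitochondrial genes and at least 10 UMIs of Myh11, the smooth muscle myosin heavy chain. This held for 20324 of the 29930 deposited barcodes. The share of a barcode's UMIs that came from the 4 genes was computed, and the highest 10% of each library were selected on it, 2032 barcodes in all. The lowest 50% of the same library, 10162 barcodes in all, served as the contrast.

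The cells came from mice 12 weeks of age that carried Wnt1-Cre2, a Cre recombinase driven by a Wnt1 promoter and thus active in the embryonic neural crest. Their mT/mG reporter gives membrane GFP to recombined cells and their descendants and membrane tdTomato (RFP) to all other cells. Digestion was enzymatic and cold, and single, viable cells positive for the integrin subunit ITGA8 were sorted. Every library went through these steps, so their part in the values below cannot be told apart from cell states in the aorta. It was not tested. There were 4 groups of 1 library each. They were the aortic root (Root, with no reporter colour in its title), GFP cells of the ascending aorta (Asc-GFP), RFP cells of the ascending aorta (Asc-RFP) and GFP cells of the arch (Arch-GFP). No treatment differed between them. The sources used here do not give how many animals were pooled. Where 4 values follow each other, they are those of Root, Asc-GFP, Asc-RFP, then Arch-GFP. With 1 library per group no difference has a replicate check, and the members were chosen by expression in the same cells that are described. All values below are therefore descriptions without a test. Intervals are 95% intervals for counting error only.

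Immediate-early genes are transcribed within minutes of a stimulus, without new protein synthesis, when growth factors, stretch, calcium entry or stress activate factors already present in the cell. Many encode transcription factors. FOS-family and JUN-family proteins pair to form AP-1, EGR proteins are zinc finger activators, and ATF3 is a stress-induced member of the ATF/CREB family. Their transcripts carry signals for rapid decay, and several genes induced together with them encode proteins that end the response.

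The members numbered 277 of 2770 muscle barcodes in Root, 622 of 6220 in Asc-GFP, 385 of 3850 in Asc-RFP and 748 of 7484 in Arch-GFP. The lowest share of a member differed between libraries, at 13.87, 8.10, 11.12 and 5.765 per 10000 UMIs. The highest share just outside was 13.87, 8.097, 11.11 and 5.764, so the limit cut a continuous range. Summed over members the share was 27.95, 22.75, 27.68 and 16.05 per 10000 UMIs, against 0.3455, 0.2074, 0.1914 and 0.1536 in the contrast. From 31.48% (Root) to 40.02% (Arch-GFP) of the muscle barcodes had no UMI of the 4 genes. The members held between 57.17% (Root) and 66.51% (Asc-RFP) of all UMIs of these genes in the muscle barcodes. A member could rest on few molecules, since the lowest number of UMIs of the 4 genes in a member was 5 in Root and 2 in the other libraries, with medians of 33, 20, 28 and 14.

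**Figure D1:**
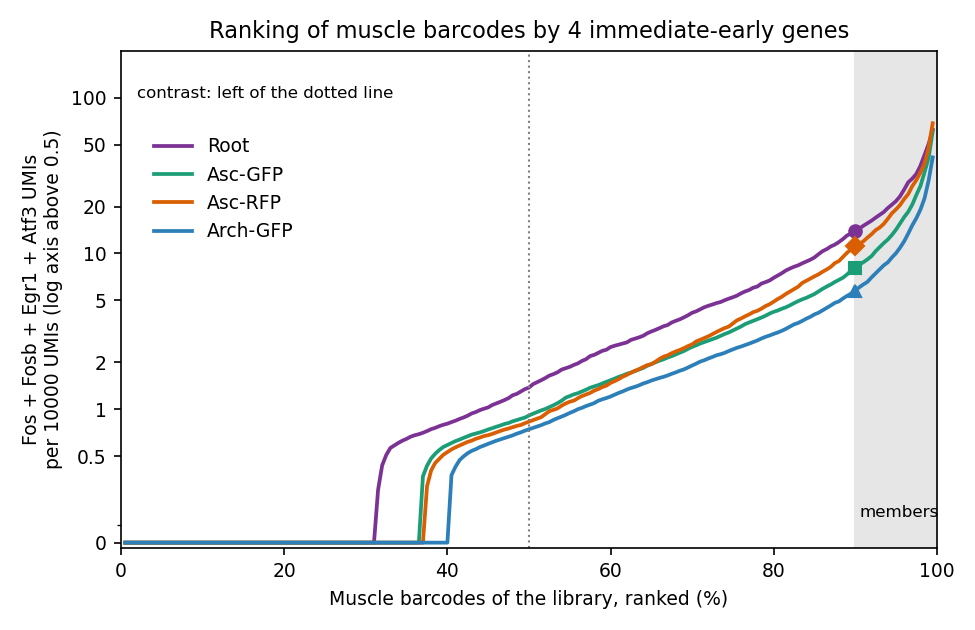
Share of UMIs from Fos, Fosb, Egr1 and Atf3 (vertical axis, per 10000 UMIs, logarithmic above 0.5) for the muscle barcodes of each library in rank order (horizontal axis, percent of barcodes). The shaded zone holds the members, and the symbols mark the lowest share of a member, which runs from 5.765 in Arch-GFP to 13.87 in Root with no break in any curve.

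The members, like the contrast, passed the filter on Myh11 and the sort on ITGA8, so their muscle identity was partly set by the selection. Summed over 12 smooth muscle markers, which include Myh11 and Itga8, members stood at 53169, 53118, 57244 and 51061 CPM, and the contrast at 47767, 51339, 55354 and 47899 CPM. CPM are UMIs per mega-UMI of a class, and since transcripts were counted at their 3′ ends they were not divided by length. Lymphocyte markers summed to at most 0.5301 CPM in the members of any library, red blood cell markers to at most 0.2417 CPM, and mesothelial markers were at 0. Fibroblast markers summed to between 1778 and 2487 CPM in members and between 1898 and 2698 CPM in the contrast, pericyte markers to between 501.8 and 811.6 CPM and between 533.8 and 993 CPM, and Schwann and glial markers to between 1.622 and 4.592 CPM and between 2.484 and 3.943 CPM. Endothelial markers were between 30.57 and 52.61 CPM in members and between 36.1 and 58.49 CPM in the contrast. Cardiomyocyte markers, led by Tnnt2, were at 741.3 CPM in Root members and between 65.86 and 394.6 CPM in the others, against 1032 CPM and between 72.19 and 408.8 CPM in the contrast. Macrophage markers stood apart in Root, with 248.7 CPM in members and 45.12 CPM in the contrast. In the other libraries they reached at most 21.56 CPM in members and 8.423 CPM in the contrast. All 12 were detected in Root and in Asc-RFP, and 3 of 12 were at 0 in both classes of Asc-GFP and 2 of 12 in Arch-GFP.

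Members were slightly deeper than the contrast in 3 libraries. Their median UMIs were 14618 in Root, 13884 in Asc-GFP and 14553 in Asc-RFP, against 12850, 13067 and 13670, while in Arch-GFP members had 13315 and the contrast 13793. At a fixed depth of 4000 UMIs, which left out 3, 21, 31 and 60 shallower members, they had 1674, 1716, 1686 and 1732 detected genes, fewer than the 1723, 1742, 1720 and 1768 of the contrast. The median mitochondrial share lay between 4.887% and 4.986% in members and between 4.993% and 5.199% in the contrast. Among barcodes that failed the muscle filter through Myh11, 7.895%, 12.77%, 6.667% and 13.16% reached the members' limit, at median depths of 6482, 3396, 2508 and 3667 UMIs. Macrophage markers summed to 21026, 555.6, 12903 and 7.144 CPM in those barcodes. The part of depth and of free RNA in the members’ values was not tested, beyond the thinned values below.

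Among genes other than the ranking genes, the ones counted as higher were at least 2-fold higher in members than in the contrast, at 20 CPM or more in either. There were 61 such genes of 5797 in Root (1.05%), 44 of 5762 for Asc-GFP (0.764%), 50 of 5695 for Asc-RFP (0.878%) and 31 of 5852 for Arch-GFP (0.53%). At least 2-fold lower were 8 genes in Root (0.138%), 0 for Asc-GFP (0%), 1 for Asc-RFP (0.0176%) and 1 for Arch-GFP (0.0171%). Of the 5427 genes that reached 20 CPM in every library, 26 were at least 2-fold higher in all 4 (0.479%) and 0 were at least 2-fold lower in all 4 (0%). They included Arid5a, Btg2, Ccn1, Csrnp1, Dnajb1, Dusp1, Errfi1, Hspa1a, Hspa1b, Hspb1, Ier2, Ier5, Irs2, Jun, Junb, Klf2, Klf4, Nfkbiz, Nr4a1, Otud1, Ptgs2, Rcan1, Tent5a, Xirp1 and Zfp36. In 23 of them the smallest of the 4 ratios was that of Arch-GFP, the library with the lowest limit. With a common limit of 10 per 10000 UMIs in every library, set after the data were seen, this held for 11 of the 26.

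**Figure D2:**
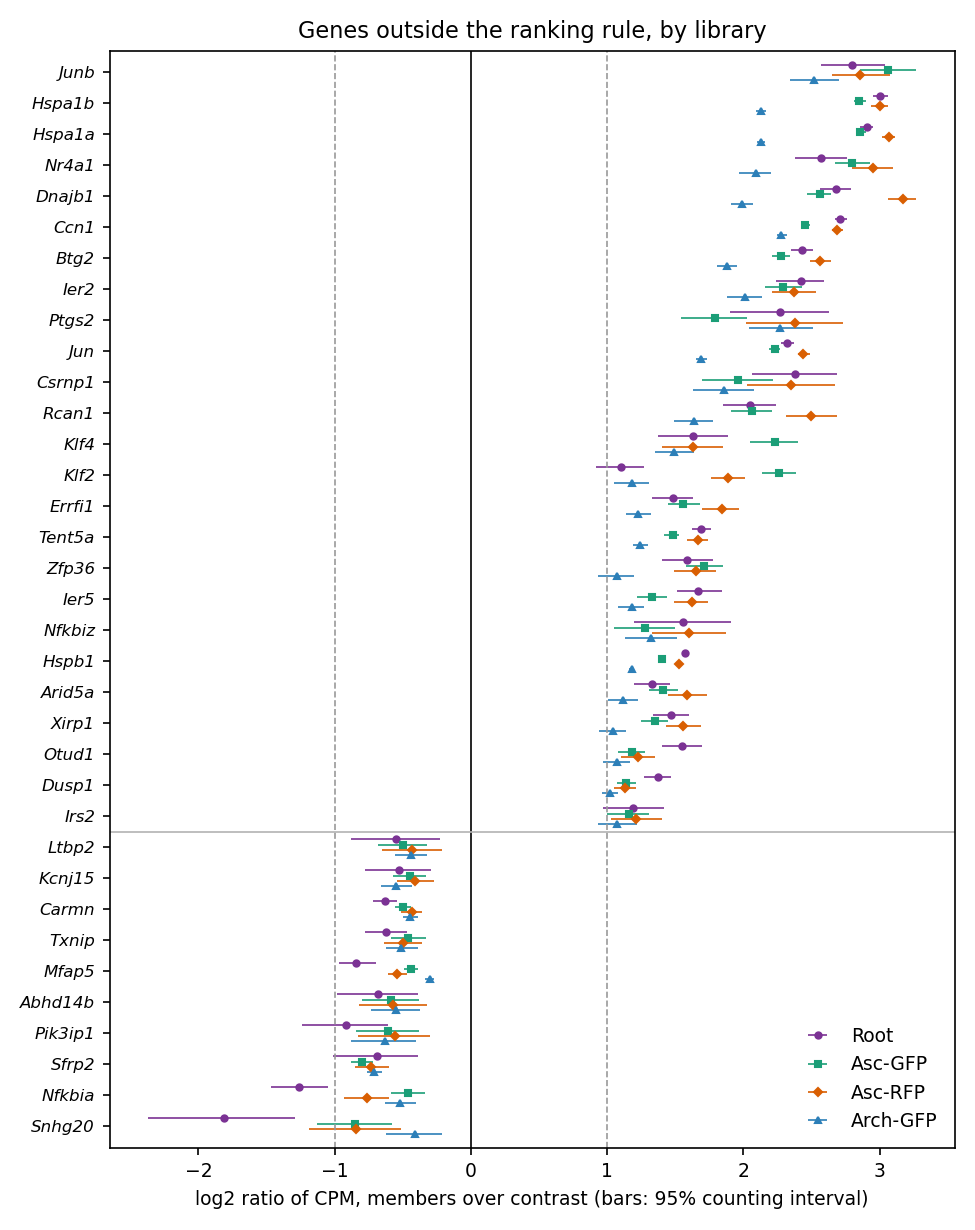
Log2 ratio of CPM between members and contrast (horizontal axis) for 25 of the 26 genes at least 2-fold higher in all 4 libraries (above the grey line) and the 10 genes with the most clearly lower levels (below it), 1 symbol per library with its 95% counting interval. Dashed lines mark a 2-fold ratio, and the ratios run from 1.02 for Dusp1 in Arch-GFP to 3.17 for Dnajb1 in Asc-RFP above the line.

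The count for all 4 libraries moved with who was ranked. Among female barcodes, those with UMIs of Xist and none of 4 Y-linked genes, 38 genes were at least 2-fold higher in all 4 libraries, 25 of them among the 26. Among male barcodes, with Y-linked UMIs and no Xist, 15 were, 14 of them among the 26, with 29 members in Root. Without Atf3 in the ranking the count was 14, all among the 26. Against the middle 40% of the ranking in place of the lowest 50% it was 12, again all among the 26. After thinning every barcode to 4000 UMIs it was 20, and without barcodes that held any UMI of a macrophage or endothelial marker it was 21.

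Gene groups were then counted on a wider scale. A gene was measured if it had 5 CPM or more in members or contrast of every library, so it could enter through the members alone. It was called higher where its log2 ratio reached 0.5 in all 4. Of 9341 measured genes 88 were higher (0.942%) and 23 were lower, at -0.5 or less (0.246%). The median log2 ratio over all genes at 5 CPM was -0.09, -0.05, -0.07 and -0.07.

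Among other AP-1 and MAF family genes, 4 of 7 measured were higher in all 4 libraries and none was lower. These were Jun, Junb, Jund and Fosl2, and the list's median log2 ratio was 0.83, 0.68, 0.79 and 0.51. Junb (chr8:84974484-84978718, mm10) stood at 95.47, 61.65, 81.99 and 52.67 CPM in members, against 13.69, 7.38, 11.29 and 9.191 in the contrast. The lowest member value was 52.67 CPM and the highest contrast value 13.69 CPM, so the library sums of the classes did not overlap. The log2 ratios were 2.80 (2.57 to 3.04), 3.06 (2.86 to 3.27), 2.86 (2.65 to 3.08) and 2.52 (2.34 to 2.70). Junb was picked by its ratio in these same values and reached 20 CPM through the members only. Here and for the genes below such a separation is a description, and the share of all genes that show it is not given. Jun (chr4:95049034-95052222), the founding AP-1 partner, was at 2151, 1439, 1576 and 875.2 CPM in members and 429.8, 306.7, 289.8 and 270.7 CPM in the contrast. Its log2 ratios were 2.32, 2.23, 2.44 and 1.69. Fosl2, a FOS relative, had smaller ratios of 1.26, 0.93, 1.15 and 0.97, and Jund, a JUN relative that is present before stimulation, smaller ones still of 0.83, 0.67, 0.79 and 0.51.

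Junb was detected in a minority of members. At 4000 UMIs per barcode, 19.34%, 13.14%, 16.38% and 12.94% of members had a UMI of Junb, against 3.676%, 2.972%, 3.662% and 3.303% of the contrast. Without thinning the shares were 34.3%, 27.17%, 38.7% and 23.4% in members and 11.99%, 8.65%, 12.05% and 9.647% in the contrast. For Nr4a1 the thinned shares were 32.12%, 32.28%, 41.24% and 29.36% in members and 6.176%, 7.86%, 8% and 9.767% in the contrast. No cell type known to lack these transcripts was sorted, so the share that free RNA gives was not measured.

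Of 17 measured genes of the EGR, NR4A, KLF and IER families and their like, 10 were higher in all 4 libraries and none lower. These were Egr3, Nr4a1, Nr4a3, Klf2, Klf4, Klf6, Ier2, Ier3, Ier5 and Csrnp1, with list medians of 1.17, 0.98, 0.89 and 0.99. Nr4a1 (chr15:101254269-101274795), an orphan nuclear receptor, was at 128.6, 142.9, 171.6 and 118.5 CPM in members and at 21.69, 20.52, 22.17 and 27.89 CPM in the contrast. Every member value lay above every contrast value, with log2 ratios of 2.57, 2.80, 2.95 and 2.09. Ier2, an early nuclear protein gene, had ratios of 2.42, 2.29, 2.37 and 2.01. Klf2, a zinc finger factor known for its response to fluid flow in endothelium, differed most between libraries among these, at 1.10 (0.92 to 1.27), 2.26 (2.14 to 2.39), 1.89 (1.76 to 2.01) and 1.18 (1.05 to 1.31). In Root 1.10 rested on 97.4 CPM in members against 45.56 CPM in the contrast, the highest Klf2 level of any contrast. Klf4, which is named in muscle cell modulation, was at 51.72, 62.46, 46.82 and 59.31 CPM in members and 16.7, 13.34, 15.16 and 21.05 CPM in the contrast. Egr3 was rare, with 9.426 to 14.49 CPM in members and 0.3829 to 0.8753 CPM in the contrast, and it reached 5 CPM through the members only.

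Regulators whose products limit the response were higher in part. Of 23 measured feedback regulators 11 were higher in all 4 libraries, none was lower and 12 were neither. The higher ones were Dusp1, Dusp10, Zfp36, Btg1, Btg2, Socs3, Nfkbiz, Trib1, Sgk1, Errfi1 and Arc. Btg2, an antiproliferative gene, was at 639.8, 400.8, 540 and 293.7 CPM in members and 118.7, 82.74, 91.35 and 79.71 CPM in the contrast, with log2 ratios of 2.43, 2.28, 2.56 and 1.88. Dusp1, which dephosphorylates MAP kinases, was already high in the contrast, at 111.7, 128.2, 156.7 and 145.3 CPM, and reached 288.8, 281.7, 343.1 and 295.1 CPM in members. Its ratios of 1.37, 1.14, 1.13 and 1.02 were just over 2-fold. Zfp36, which binds AU-rich transcripts and speeds their decay, had ratios of 1.59, 1.71, 1.65 and 1.07, and Errfi1, an inhibitor of the EGF receptor, 1.48, 1.56, 1.84 and 1.23. Rcan1, an inhibitor of calcineurin, was among the 26 with 2.05, 2.06, 2.50 and 1.64. Arc, known from neurons, had the widest ratios outside the ranking genes, at 6.05 (4.41 to 8.38), 5.85 (5.09 to 6.72), 6.61 (5.60 to 7.84) and 4.67 (4.12 to 5.26), on 10.88 to 29.86 CPM in members and 0.1643 to 0.6565 CPM in the contrast. Arc reached 5 CPM through the members only, and its ratios rest on very low contrast values.

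The promoters of 4 of these genes are shown because they hold the classical sites through which stimulated kinases act. Sequences are RefSeq's on GRCm38.p6, 250 bases before the annotated start, 5′ to 3′ on the gene's strand, with each motif match in capitals. In Btg2 (chr1:134079156-134079405, minus strand), Dusp1 (chr17:26508473-26508722, minus strand) and Rcan1 (chr16:92400079-92400328, minus strand, 1 of 2 annotated starts) the capitals mark the cyclic AMP response element (CRE) TGACGTCA, with its first base 166, 143 and 175 bases before the start, and in Rcan1 also the AP-1 site TGACTCA 110 bases before it. In Zfp36 (chr7:28379229-28379478, minus strand) they mark an EGR site, GCGGGGGCG, 105 bases before the start and a CArG box, the site of serum response factor, 58 bases before it.
Btg2: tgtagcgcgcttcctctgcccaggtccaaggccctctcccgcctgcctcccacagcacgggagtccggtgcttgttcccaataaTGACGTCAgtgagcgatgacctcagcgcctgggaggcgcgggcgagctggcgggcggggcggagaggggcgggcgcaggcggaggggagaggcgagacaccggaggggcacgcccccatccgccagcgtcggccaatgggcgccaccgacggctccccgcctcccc
Dusp1: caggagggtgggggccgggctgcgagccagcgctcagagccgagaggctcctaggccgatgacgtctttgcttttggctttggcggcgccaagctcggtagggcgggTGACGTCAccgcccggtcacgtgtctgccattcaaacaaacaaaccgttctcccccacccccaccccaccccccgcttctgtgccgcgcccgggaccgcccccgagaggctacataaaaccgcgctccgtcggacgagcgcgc
Rcan1: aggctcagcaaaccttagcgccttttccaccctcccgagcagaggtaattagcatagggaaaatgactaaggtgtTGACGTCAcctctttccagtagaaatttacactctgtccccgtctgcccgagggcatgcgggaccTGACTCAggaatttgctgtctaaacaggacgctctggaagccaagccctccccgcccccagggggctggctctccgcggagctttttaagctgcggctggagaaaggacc
Zfp36: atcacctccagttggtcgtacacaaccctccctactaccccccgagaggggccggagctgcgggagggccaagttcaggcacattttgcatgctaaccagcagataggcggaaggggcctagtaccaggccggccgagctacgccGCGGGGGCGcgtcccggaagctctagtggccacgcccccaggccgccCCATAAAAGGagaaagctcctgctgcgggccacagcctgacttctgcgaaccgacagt

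Across the windows of 250 bases before to 50 bases after a start, 22 of the 26 genes were matched to the RefSeq table. Both strands were searched. The CRE TGACGTCA was found in 4 of 22 genes (18.2%; Btg2, Dusp1, Errfi1 and Rcan1) and in 4.09% of the 4349 genes with a window among all measured at 20 CPM. An EGR site, GCGTGGGCG or GCGGGGGCG, was found in 5 of 22 (22.7%; Klf2, Klf4, Nr4a1, Tent5a and Zfp36) and in 8.44% of the measured genes. The AP-1 site TGACTCA was found in 2 (9.09%; Csrnp1 and Rcan1) and in 4.12%, and the CArG box in 1 (4.55%; Zfp36) and in 2.09%. The heat shock element in its spaced form of inverted GAA units was found in 0 of 22 and in 0.713% of the measured genes. Only exact matches to this form were counted, so the 0 does not show that looser forms of the element are absent. These are counts of letters in short windows, and no binding was measured.

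Of 20 measured chaperone genes 10 were higher in all 4 libraries and none lower, with list medians of 0.86, 0.64, 0.86 and 0.50. They included Hspa1a, Hspa1b, Hspa8, Dnajb1, Dnajb4, Dnaja1, Hsp90aa1, Hspb1 and Bag3. Summed over the list, members held 29530, 23401, 26253 and 24097 CPM, and the contrast 14052, 12883, 12741 and 14659. Hspa1a (chr17:34969190-34972156), an inducible HSP70, was at 2490, 1966, 2026 and 1602 CPM in members and 332.4, 270.4, 241.9 and 366.2 CPM in the contrast. The lowest member value lay above the highest contrast value, and the log2 ratios were 2.91 (2.86 to 2.95), 2.86 (2.83 to 2.90), 3.07 (3.02 to 3.11) and 2.13 (2.10 to 2.16). Hspa1b (chr17:34956436-34959238), its near-identical neighbour, had 3.00, 2.85, 3.00 and 2.13, and how reads were divided between the 2 genes is uncertain. Hspb1, a small heat shock protein that is abundant in muscle, was at 6675, 3891, 5037 and 4699 CPM in members and 2244, 1477, 1745 and 2078 CPM in the contrast, the largest difference in CPM among the 26. Dnajb1, an HSP70 cochaperone, had ratios of 2.68, 2.56, 3.17 and 1.99. The constitutive chaperones had smaller ones, Hspa8 0.87, 0.67, 0.84 and 0.51 and Hsp90aa1 0.86, 0.71, 0.90 and 0.60. Hsf1, the heat shock factor, was near even at -0.04, 0.32, -0.04 and -0.01.

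Of 13 measured CCN and YAP-associated genes 2 were higher in all 4 libraries, Ccn1 and Ccn2, and none lower, and the list median lay between 0.04 and 0.24. Ccn1 (chr3:145646976-145649981), a matricellular protein, was at 2181, 1631, 1900 and 1203 CPM in members and at 332.7, 298.3, 293.9 and 247.5 CPM in the contrast. The library sums of the classes did not overlap, with ratios of 2.71 (2.67 to 2.76), 2.45 (2.42 to 2.49), 2.69 (2.65 to 2.73) and 2.28 (2.25 to 2.32). Ccn2 was higher in level, 3012 to 3226 CPM in members and 1163 to 1602 CPM in the contrast, with ratios of 1.47, 0.99, 1.22 and 0.91. Ankrd1, another gene of that list, was at 0.33, 0.78, 0.79 and 0.47. Of 17 measured TGF-beta genes 2 were higher in all 4 and none lower. Tgfb3, a ligand and 1 of them, was at 0.78, 0.85, 0.90 and 0.75, and the list medians were -0.06, 0.05, 0.07 and -0.01.

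Few inflammatory genes were measurable. Of 24 cytokine, chemokine and prostanoid genes 8 reached 5 CPM in every library, and Ptgs2 and Hbegf were higher in all 4, with none lower. Ptgs2, the inducible prostaglandin synthase, was at 32.15, 27.35, 25.27 and 29.91 CPM in members and 6.681, 7.934, 4.862 and 6.187 CPM in the contrast, ratios of 2.27, 1.79, 2.38 and 2.27. Hbegf, a growth factor of the EGF family, had ratios of 0.91, 1.03, 1.26 and 1.05. Vcam1, a leukocyte adhesion molecule, was at -1.42, -0.36, -1.71 and 0.22. Nfkbia, a feedback inhibitor of NF-kappaB, had negative ratios in all 4, at -1.26, -0.46, -0.76 and -0.52, while Nfkbiz, an inducible relative, was higher at 1.56, 1.28, 1.60 and 1.32.

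Other stress programmes were higher in single genes. Of 13 measured ER and amino acid stress genes, Atf4 (1.04, 0.73, 0.90 and 0.75) and Ppp1r15a (1.38, 0.93, 1.10 and 0.94) were higher in all 4, and the list median lay between -0.08 and 0.22. Of 10 measured p53 targets only Btg2 was higher in all 4, and Cdkn1a was at 0.40, 0.29, 0.62 and 0.23. None of 12 metallothionein and oxidative stress genes was higher or lower in all 4. Mt1, a metallothionein, was at -0.83, -0.37, -0.47 and -0.14.

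The contractile programme differed little between members and contrast. Of 25 measured genes of the contractile apparatus 0 were higher and 0 lower in all 4 libraries, with medians of 0.07, 0.04, 0.02 and 0.04. Acta2, smooth muscle actin, was at 21730, 24339, 26175 and 22611 CPM in members and 17988, 23136, 24554 and 20893 CPM in the contrast, log2 ratios of 0.27, 0.07, 0.09 and 0.11. Myh11, which the filter used, was at 5285, 4792, 4990 and 4517 CPM in members and 5101, 4898, 5248 and 4394 CPM in the contrast. Itga8, the sorting antigen, had ratios of 0.00, -0.04, -0.13 and -0.11. Cnn1, calponin, was at 0.41 in Root and between 0.17 and 0.18 elsewhere. None of 16 contractile regulators passed 0.5 in all 4. Myocd, the smooth muscle coactivator of serum response factor, was at 0.39, 0.22, 0.37 and 0.30, and Srf, whose protein drives Fos, at 0.31, 0.07, 0.24 and 0.30.

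None of 16 cytoskeletal genes of the SRF and MRTF pathway was higher in all 4 at that limit, though Actg1, cytoplasmic actin, came close at 0.47, 0.51, 0.43 and 0.47, and Filip1l, a filamin-interacting protein gene, at 0.42, 0.50, 0.55 and 0.50. No matrix gene was counted in all 4 libraries. The medians of 16 elastic fibre genes were -0.12, -0.16, -0.16 and -0.21 and those of 14 collagens -0.04, -0.10, -0.11 and -0.17, beside -0.09, -0.05, -0.07 and -0.07 over all genes. Eln, elastin, was at 0.00, -0.16, -0.18 and -0.19 and Mfap5, a microfibril protein gene, at -0.84, -0.44, -0.54 and -0.30. Of 11 measured genes of modulated muscle cells 3 were higher in all 4, Klf4 and Ccn2 among them, and Timp1, a metalloproteinase inhibitor, was lower, at -1.01, -0.87, -0.94 and -1.26 on 6.284 to 9.264 CPM in members.

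The remaining lists gave no gene counted in all 4 libraries. They were 7 Notch genes (medians -0.21, -0.01, -0.23 and -0.06), 14 circadian genes (-0.11, -0.06, -0.23 and 0.02), 25 oxidative phosphorylation genes (-0.04, -0.08, -0.08 and -0.04), 15 glycolysis genes (-0.11, -0.04, 0.01 and -0.06), 21 splicing factors (0.06, 0.08, 0.09 and 0.07), 5 proliferation genes (-0.11, 0.05, -0.09 and 0.02) and 7 nuclear long non-coding RNAs (0.48, 0.32, 0.27 and 0.10). Neat1, the RNA scaffold of paraspeckles, was at 0.49, 0.39, 0.58 and 0.27.

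The 10 genes with the most clearly lower levels in all 4 libraries, ranked by the interval bound nearest 0, were Sfrp2, Carmn, Nfkbia, Txnip, Abhd14b, Pik3ip1, Kcnj15, Mfap5, Snhg20 and Ltbp2. Sfrp2, a secreted Wnt antagonist, was at 24.41, 164.3, 104.1 and 313.2 CPM in members and at 39.48, 285.6, 172.3 and 511.5 CPM in the contrast. Levels differed more between libraries than between classes, so the ranges overlapped, and the ratios were alike at -0.69, -0.80, -0.73 and -0.71. Carmn, a long non-coding RNA enriched in smooth muscle, was at 289.8, 278.6, 312 and 297.6 CPM in members and 449.2, 393.2, 421.5 and 405.9 CPM in the contrast, with ratios of -0.63, -0.50, -0.43 and -0.45. Its ranges did not overlap, but it was picked by its interval in these same values. Of the 5427 genes 252 lay below 0 by their interval in all 4 libraries. Txnip, an inhibitor of thioredoxin, had ratios of -0.62, -0.46, -0.50 and -0.51. Pik3ip1, an inhibitor of PI3 kinase, had -0.92, -0.61, -0.56 and -0.63. The lowest ratio among the 10 was that of Snhg20, a non-coding RNA, at -1.81 in Root and -0.85, -0.84 and -0.41 elsewhere, and Nfkbia was at -1.26 in Root as given above. Of all 5427 genes 1 was at least 1.5-fold lower in all 4, against 60 at least 1.5-fold higher. Without Atf3 in the ranking the Sfrp2 ratio was 0.12 in Root and between -0.62 and -0.19 elsewhere, and Carmn stayed between -0.48 and -0.31.

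The levels differed along the whole ranking and not only at its end. In bins of 10% of a library's barcodes, with bin 10 the members, Jun went in Root from 327.8 CPM in bin 1 to 703.7 in bin 6, 1415 in bin 9 and 2151 in bin 10. In Arch-GFP it went from 261.7 to 343.8, 505.6 and 875.2 CPM. Hspa1a was at 248.5, 637.8, 1864 and 2490 CPM in these bins of Root and at 332.9, 507.7, 949.8 and 1602 CPM in Arch-GFP. Junb was concentrated at the end: in Asc-GFP it was at 7.788, 9.235, 15.6 and 61.65 CPM and in Asc-RFP at 13.69, 11.75, 30.28 and 81.99 CPM. Bins 1 to 3 of each library held only barcodes without a UMI of the 4 genes and have no order among them. Over the 40 bins, after centring each library, the genes whose levels followed the 4-gene sum most closely were Dnajb4 (Spearman rho 0.988), Tent5a (0.986), Jun (0.981), Xirp1 (0.980) and Hspa1b (0.979). These bins share libraries, and depth differed between them, so the values are a description.

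**Figure D3:**
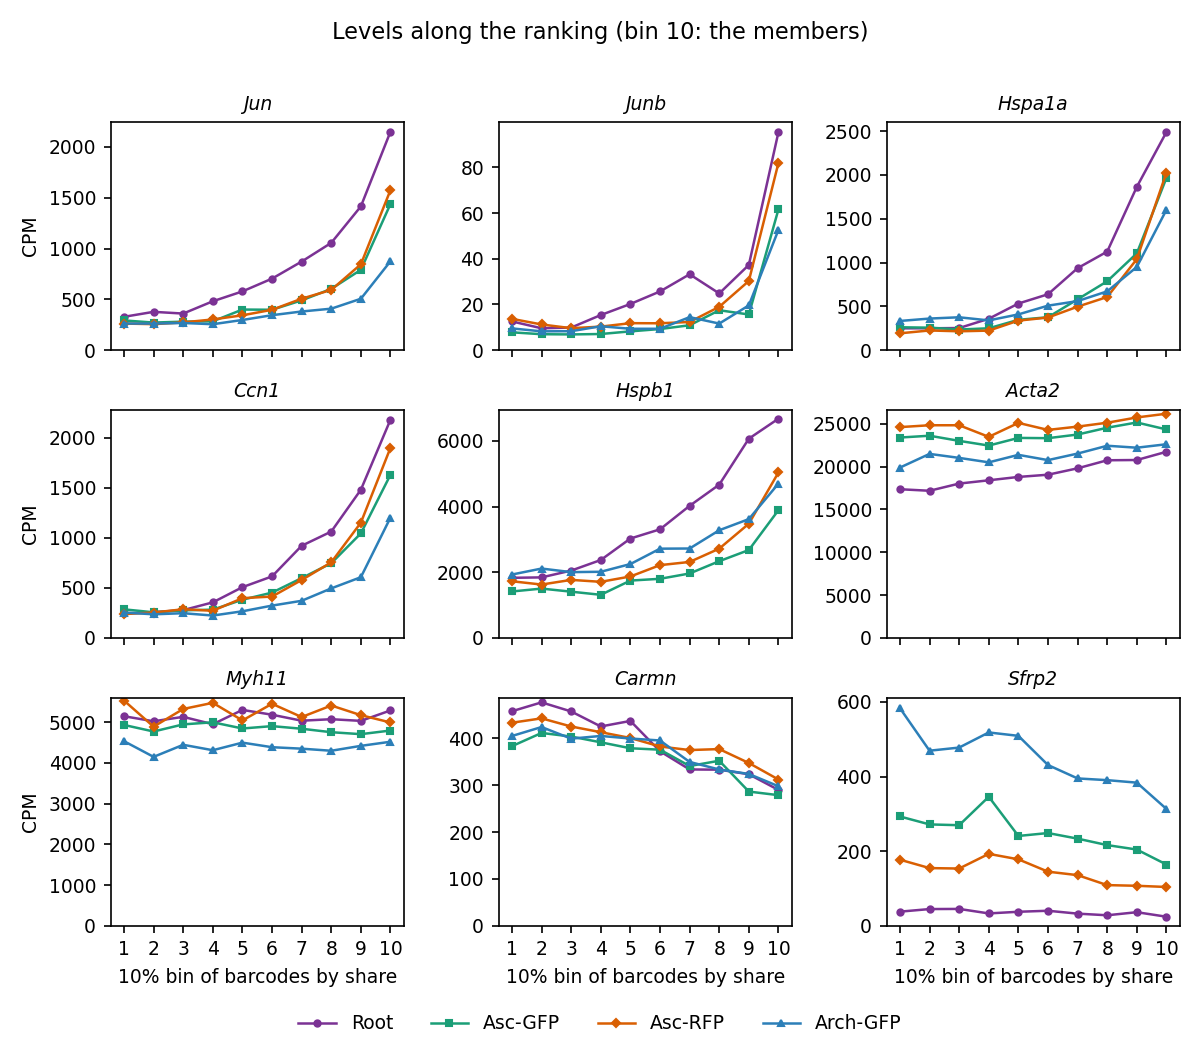
CPM (vertical axis, linear from 0) of 9 genes in bins of 10% of each library's muscle barcodes ordered by the share of the 4 ranking genes (horizontal axis, bin 10 being the members), 1 line per library. Jun, Hspa1a, Ccn1 and Hspb1 climb over several bins, Junb is highest in bin 10, Myh11 stays level, Acta2 does so except for a climb in Root, and Carmn and Sfrp2 decline.

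Barcodes ranked by another early gene overlapped the members only in part. Of the highest 10% by Hspa1a and Hspa1b, the members were 46.21% (40.23 to 52.27), 44.86% (40.9 to 48.86), 42.08% and 37.17%. By Jun the shares were 48.74%, 46.62%, 44.94% and 38.77%, and by Ccn1 42.6%, 42.44%, 45.45% and 40.37%. Since both groups are 10% of a library, each share holds for either list. Ranking by Myh11 gave 9.386%, 8.842%, 9.351% and 12.57%, and ranking by Sfrp2 6.137%, 5.305%, 7.013% and 7.62%. Across the 5427 genes the members' log2 ratios of any 2 libraries had a Pearson r between 0.71 and 0.83 and a Spearman rho between 0.36 and 0.49. Genes are not independent replicates, and a few early genes with large ratios weigh on the Pearson value.

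The 4 ranking genes were themselves not uniform within the members. When barcodes were ranked by the other 3 genes, the gene left out was still higher, by a log2 ratio of 4.57, 4.78, 4.50 and 4.09 for Fos, 4.12, 5.54, 6.01 and 4.74 for Fosb, 2.90, 3.86, 3.96 and 3.66 for Egr1 and 2.20, 2.61, 2.96 and 1.99 for Atf3. All 4 transcripts were found in 20.58%, 14.31%, 21.56% and 11.23% of members. A single one of them was found in 11.19%, 15.43%, 12.21% and 25.53%, and that one was Atf3 in 30 of 31, 84 of 96, 34 of 47 and 157 of 191 such members. Atf3 supplied a median of 66.67%, 56.25%, 50% and 50% of a member's UMIs of the 4 genes, with quartiles as far apart as 15.38% and 93.33% in Arch-GFP.

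Members were therefore split at their library's median by the part of Atf3 among these UMIs, a split made after the data were seen. By construction, Atf3-rich members were poor in the other ranking genes, with Egr1 at log2 ratios of -3.40, -3.42, -2.90 and -3.44 between rich and poor. The split cannot tell genes that go with Atf3 from genes that go against the other ranking genes. The share of all genes that differed between these groups is not given. The Atf3-rich and Atf3-poor members differed little in depth, with medians of 14402, 13803, 14722 and 13322 UMIs in the former and 14821, 13948, 14364 and 13207 UMIs in the latter. The median share of the ranking genes was 21.81, 12.73, 18.81 and 9.731 per 10000 UMIs in Atf3-rich members. In Atf3-poor members it was 21.66, 17, 19.47 and 10.42, so the groups differed most in Asc-GFP. Of the 4 chaperone genes among the 26, Hspa1a, Hspa1b and Hspb1 were higher in the Atf3-rich members of every library, and Dnajb1 was not, at 0.39, 0.01, 0.19 and 0.84. Hspa1a was at 3124, 2628, 2690 and 2405 CPM in Atf3-rich and 1888, 1315, 1324 and 820.8 CPM in Atf3-poor members, log2 ratios of 0.73, 1.0, 1.02 and 1.55, and Hspb1 had ratios of 0.72, 0.68, 0.74 and 1.25. Jun (0.40, 0.50, 0.63 and 0.80), Ccn1 (0.43, 0.56, 0.49 and 0.70), Arid5a (0.81, 0.64, 1.15 and 1.12) and Tent5a (0.75, 0.48, 0.62 and 0.77) followed the same side. Arid5a encodes an RNA-binding protein and Tent5a a poly(A) polymerase.

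Junb and its like were on the other side. Junb stood at 11.41, 14.48, 23.71 and 13.69 CPM in Atf3-rich and 175.4, 108.1, 143.6 and 90.56 CPM in Atf3-poor members, ratios of -3.94 (-4.62 to -3.33), -2.90 (-3.31 to -2.52), -2.60 (-2.99 to -2.23) and -2.73 (-3.12 to -2.35). The contrast was at 13.69, 7.38, 11.29 and 9.191 CPM, so Atf3-rich members were slightly below their contrast in Root and above it elsewhere. No interval is given for this comparison, so the Root difference is not told from even. Ier2 had ratios of -2.15, -2.15, -1.51 and -1.86, Klf2 -1.62, -1.19, -1.15 and -1.39, and Nr4a1 -0.62, -0.84, -0.51 and -0.69. Egr3 (-3.06, -1.70, -2.62 and -2.84) and Socs3 (-3.20, -2.33, -3.27 and -1.0), a feedback inhibitor of cytokine receptors, were rarer. Dusp1 (-0.12, -0.21, -0.27 and -0.13), Btg2 (-0.23, -0.25, -0.22 and -0.08) and Rcan1 (-0.04, -0.11, 0.24 and 0.04) were close to even. When Atf3 was left out of the ranking, Hspa1a had ratios of 1.52, 1.57, 1.86 and 0.82 and Junb of 3.48, 3.30, 3.17 and 3.00. The genes that no longer were 2-fold higher in all 4 libraries were Arid5a, Dusp1, Hspa1a, Hspa1b, Hspb1, Ier5, Irs2, Jun, Otud1, Tent5a, Xirp1 and Zfp36.

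**Figure D4:**
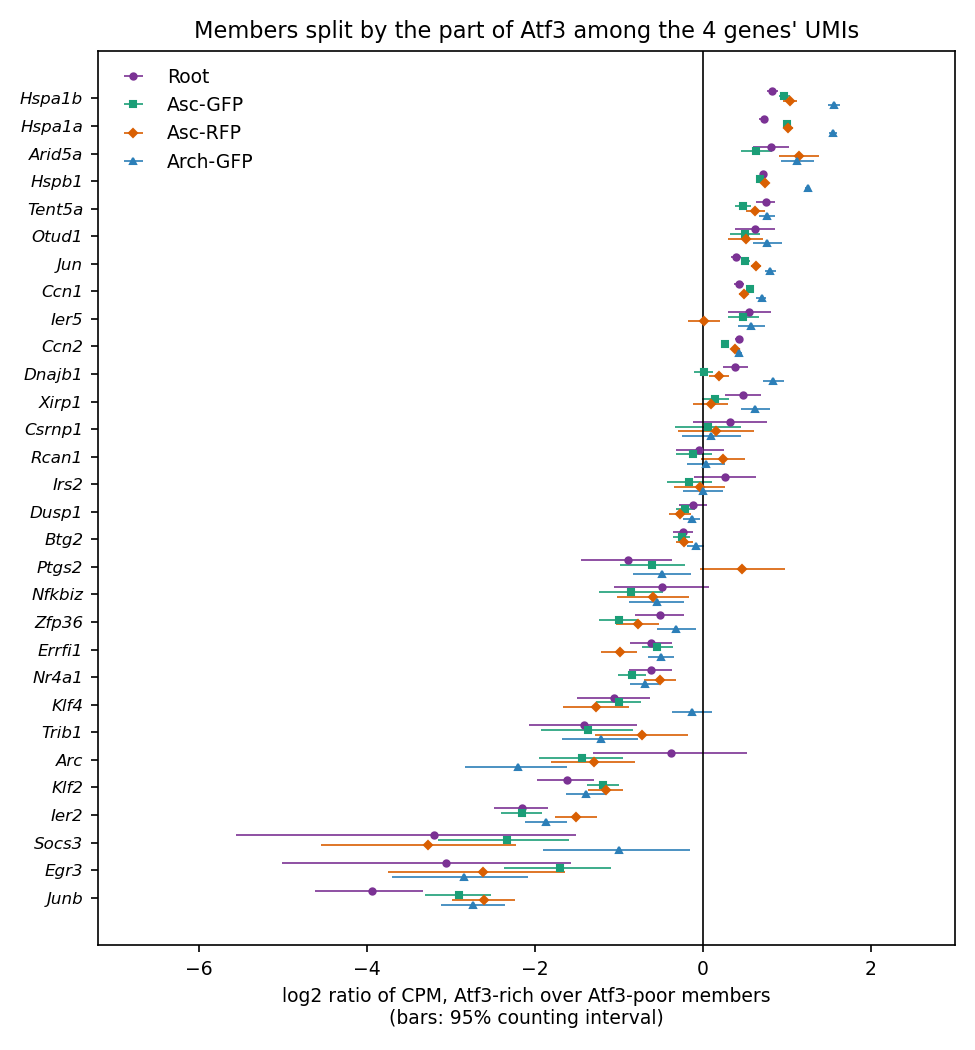
Log2 ratio of CPM between Atf3-rich and Atf3-poor members (horizontal axis) with 95% counting intervals, 1 symbol per library, for 25 of the 26 genes and Egr3, Socs3, Arc, Trib1 and Ccn2. Hspa1a, Hspa1b, Arid5a and Hspb1 lie to the right in all 4 libraries and Junb, Egr3, Socs3, Ier2 and Klf2 to the left.

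Female barcodes were a larger part of the members than of the contrast. Of the members with UMIs of 1 sex alone they made up 93.92% (90.31 to 96.48), 83.12% (79.71 to 86.17), 69.86% (64.71 to 74.65) and 47.00% (42.82 to 51.20). In the contrast they made up 85.19%, 64.96%, 49.61% and 25.42%. Members with UMIs of both, 2.166%, 7.556%, 4.935% and 11.5%, were left out of these shares. Of the female muscle barcodes 10.73%, 12.6%, 13.44% and 16.31% were members, and of the male ones 5.369%, 5.947%, 6.815% and 7.315%. Over all muscle barcodes Atf3 was higher in female than in male barcodes by a log2 ratio of 1.66, 1.66, 1.84 and 1.47, from 107.5 to 339.3 CPM in Root and from 90.2 to 250.6 CPM in Arch-GFP. Fos was at -0.72, 0.43, -0.01 and 0.47 and Junb at -1.15, 0.22, -0.10 and -0.48, so these did not share that direction in every library. Sex and animal cannot be told apart here, and the part of either in the members’ values was not tested beyond the values within 1 sex.

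**Figure D5:**
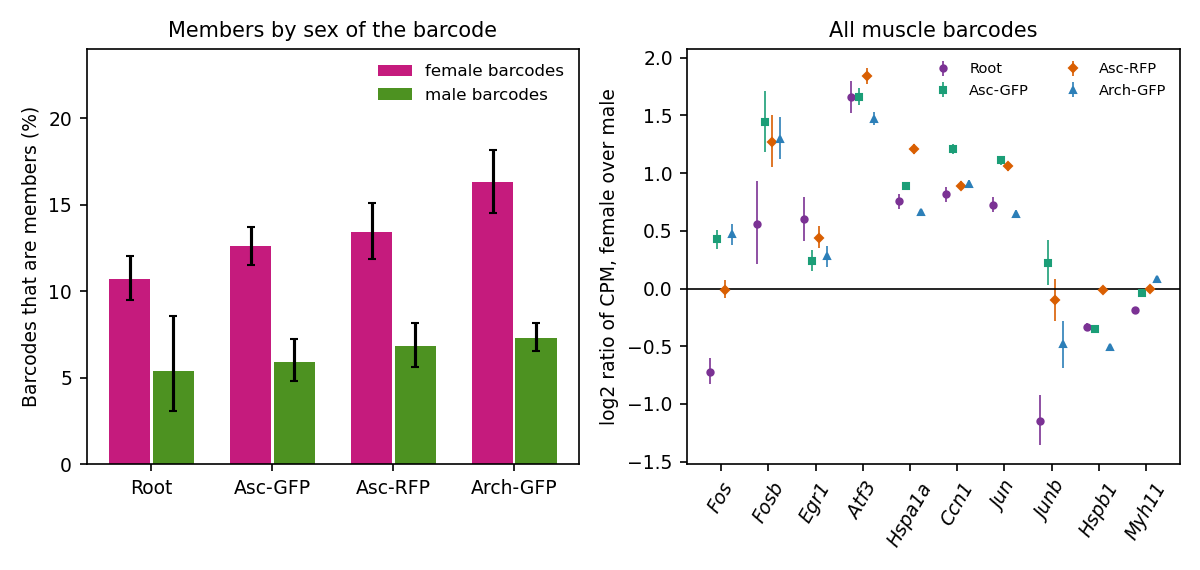
Left, percent of female and of male muscle barcodes that are members in each library, with 95% exact binomial intervals. Right, log2 ratio of CPM between female and male muscle barcodes for 10 genes with 95% counting intervals, where Atf3 lies between 1.47 and 1.84 and Hspb1 between -0.51 and -0.01.

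The ratios of Hspa1a and Hspb1 differed between the sexes, a difference that was not tested. Hspa1a had log2 ratios of 3.14, 3.31, 3.56 and 3.34 between members and contrast of the female barcodes ranked by themselves, and of 1.60, 1.39, 1.77 and 1.35 among male ones. Hspb1 had 1.86, 2.05, 2.20 and 2.27 in female and 0.51, 0.60, 0.84 and 0.96 in male barcodes. In all 4 libraries both genes had the larger ratio in female barcodes. Jun did too, at 2.35, 2.34, 2.68 and 2.23 against 2.03, 1.27, 1.42 and 1.18, and Junb did not, at 2.51, 3.29, 3.21 and 1.75 against 4.09, 2.51, 2.76 and 3.11. The Root male value rests on 29 members. Each sex was ranked by itself, so the members' limit and the part of Atf3 in it could differ. When all muscle barcodes were ranked without Atf3, Hspa1a was at 1.52, 1.57, 1.86 and 0.82. Hspb1 was then at 0.64, 0.69, 0.84 and 0.26. Between female and male muscle barcodes Hspb1 had log2 ratios of -0.33, -0.35, -0.01 and -0.51. The part of Atf3 in the ratios within each sex was not tested. Among female barcodes the Hspa1a ratio of Arch-GFP was no longer the smallest of the 4.

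Genes counted as 2-fold higher, at 20 CPM or more, in Root members alone numbered 14 of the 5797 measured there. They included C1qa, C1qb and C1qc, complement genes of macrophages, with ratios of 3.33, 2.63 and 2.60, Lyz2, lysozyme, with 2.82, and Pf4 and Cd74. These reached 20 CPM through the Root members only and stayed below it in the other libraries, where they could not be counted. In Asc-RFP, C1qa, C1qb, C1qc, Lyz2 and Pf4 had ratios of 1.07, 2.27, 1.09, 1.43 and 2.68, and Cd74 was at -0.64. Lyz2 was at 79.03 CPM in Root members and 11.23 CPM in the Root contrast, and at most 6.184 CPM in members of the other libraries. The macrophage markers of the members, 248.7 CPM, were alike to the 240.7 CPM of the middle 40% of the Root ranking. Without barcodes that held a macrophage or endothelial UMI, Hspa1a had 2.88, 2.84, 3.05 and 2.03 and Junb 2.48, 3.09, 3.21 and 2.42, against 2.91, 2.86, 3.07 and 2.13 and 2.80, 3.06, 2.86 and 2.52 with them. The Hspa1a ratios were nearly as large without these barcodes, and the Junb ratio of Root was smaller. The part of macrophage RNA in the genes counted in Root alone was not tested. Other genes counted in Root alone were Itga5, an integrin subunit, at 1.0 in Root and 0.68, 0.47 and 0.71 elsewhere, and Rian, a non-coding RNA, at 1.16 against 0.32, 0.27 and 0.10.

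Root held cells of both reporters. Of its members 25.27% (20.26 to 30.82) had at least 8 eGFP UMIs, against 20.65% (18.55 to 22.88) of its contrast. With Root restricted to its eGFP barcodes or to its tdTomato barcodes, choices made after the data were seen, the count of genes at least 2-fold higher in all 4 libraries was 26 both times, sharing 26 and 25 genes with the main count. The Root members then numbered 60 and 173. The other libraries kept their main values, which largely set these counts. Barcode sequences that occurred in another library's muscle barcodes numbered 102, of which 7 were members, and without them the 26 genes were the same.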

How the data were processed

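Single-cell RNA was measured in 4 libraries of sorted aortic cells, 1 per group, using 3′ v3.1 droplet chemistry of 10x Genomics, per the labels' protocols. Values are raw UMI counts as deposited, integers for each feature in each barcode; per the file headers they were written by Cell Ranger 7.0.0. The build mm10 and Seurat 4.3 are named in the submitters' processing notes, without the steps they were used for. The 29930 deposited barcodes equal the cells stated in the labels before filtering. The labels state 1841, 4050, 2450 and 4710 cells after filtering, and the filter here left 2770, 6220, 3850 and 7484 muscle barcodes. Of 32287 features, 32158 were matched to GENCODE M21 by identifier.

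From the counts, UMIs were summed over the members and over the contrast of a library and scaled to CPM. Members summed to 4137437, 8629414, 5659510 and 9930454 UMIs and the contrast to 18260775, 41465643, 26119242 and 50268771. Intervals, at 95%, are exact: conditional binomial for log2 ratios and Clopper-Pearson for shares. They do not cover PCR or the sampling of cells. Ties in the ranking were kept in file order. A sum of 0 was set against 3 counts. Thinning drew 4000 UMIs per barcode, seed 1. No doublet caller was run, and doublets were weighed by leaving out barcodes with Xist and Y-linked UMIs and the deepest 5% of each library. Free RNA was not removed. The ratio code was tested on simulated data.

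Named genes were those ranked by the interval bound nearest 0 (20 highest, 10 lowest), all 26 genes 2-fold higher in all 4 libraries, and up to 4 of each of 23 lists and 11 marker lists, without mitochondrial, ribosomal and sex-linked genes. Further genes named in a list's count or after the data were seen have values from the same table. Some genes of these counts are not reported here by name. The members, the lists and the rules were chosen with earlier results of these data known. Another 18 settings were listed at the outset and 4 were added after seeing the data. Python 3.11.15, numpy 2.4.6, scipy 1.17.1, pandas 2.3.3 and matplotlib 3.10.9 were used.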

Additional observations from a re-analysis of the deposited data

How the results depend on the processing

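No count of genes at least 2-fold lower in all 4 libraries differed from 0 under any of the 22 alternatives. Genes at least 2-fold higher in all 4 libraries, 26 in the main count, were between 20 and 38 under the alternatives not given here. With the highest 5% as members they were 40 (Root 94 higher and 36 lower; lower in Asc-GFP 2, Asc-RFP 3 and Arch-GFP 2), and with the highest 20% they were 15 (higher in Asc-GFP 25 and Arch-GFP 19; lower in Root 5, Asc-RFP 0 and Arch-GFP 0). Against the lowest 25%, 4 were lower in Arch-GFP. Against the middle 40% the count was 12 (13 higher and 2 lower in Root, 18 and 1 in Asc-GFP, 23 and 0 in Asc-RFP, 16 and 0 in Arch-GFP). With at least 2000 genes per barcode 2 were lower in Arch-GFP. At 5% mitochondrial UMIs 17, 2, 3 and 7 were lower in the 4 libraries, and with ranking within bins of UMIs 1, 2 and 2 in the last 3. Thinned to 4000 UMIs, 40, 1 and 6 were lower in Root, Asc-GFP and Asc-RFP, and Bhlhe41 (0.42) and Timp1 (0.18) turned in Root. Without Fos in the ranking 13 were lower in Root and 7 in Arch-GFP, and Vcam1 turned to 0.13 in Asc-RFP. Without Atf3 the count was 14 (higher 32, 26, 32 and 18 in the 4 libraries; lower 1 in Root, 0 in Asc-RFP and 0 in Arch-GFP), and Vcam1 turned to 0.25 in Root and 0.42 in Asc-RFP and Timp1 to 0.36 in Root. Without possible doublets 0 were lower in Asc-RFP and 2 in Arch-GFP. Without macrophage or endothelial UMIs 21, 1 and 2 were lower in Root, Asc-GFP and Asc-RFP, and Timp1 turned to 0.17 in Root. Among female barcodes 16, 1, 12 and 27 were lower and 56 higher in Arch-GFP. Among male barcodes the count was 15 (higher 167 in Root and 26 in Asc-RFP; lower 178 in Root, 4 in Asc-GFP and 0 in Arch-GFP), and Ptgs2 (-1.22), Pecam1 (0.76) and Itga5 (-0.32) turned in Root and Vcam1 (1.38) in Asc-RFP. From 5 CPM, 111 were higher in Root and 103, 7, 34 and 17 lower. With barcodes weighted equally 1, 0 and 0 were lower in Asc-GFP, Asc-RFP and Arch-GFP. Of the alternatives chosen after seeing the data, Root eGFP barcodes gave 85 lower in Root, Root tdTomato barcodes 15, and a common limit of 10 per 10000 UMIs 1 in Asc-GFP and 2 in Arch-GFP. The cause of these shifts was not tested. All other values of the named genes kept their sign or were not called.

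No paired analysis was possible because each group is 1 library. For the same reason leaving out a replicate was not possible. Root has the fewest members, 277. Members of Asc-GFP, Asc-RFP and Arch-GFP can rest on 2 UMIs of the 4 genes, which limits the precision of the ranking there.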

Other observations

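Some genes of cholesterol metabolism were among the higher genes. Of 22 genes of cholesterol synthesis and its control, a list drawn up after several of them had been seen among the higher genes, 19 were measured at 5 CPM in every library. Of these 9 were higher by a log2 ratio of at least 0.5 in all 4 libraries and 0 were lower, with medians of 0.54, 0.50, 0.56 and 0.47, beside 0.942% of all genes at 5 CPM. Since the list was chosen for this pattern, its count supports nothing beyond the values of its genes. They included Hmgcs1, Idi1, Sqle, Cyp51, Msmo1, Hsd17b7, Insig1 and Stard4. Idi1, an isomerase of the pathway, was at 36.5, 44.27, 41.52 and 54.58 CPM in members and 19.39, 20.43, 20.79 and 26.48 CPM in the contrast, ratios of 0.91, 1.12, 1.0 and 1.04, and Insig1, which retains the regulators of the pathway in the ER, 1.32, 1.21, 0.93 and 0.81.

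Tnfrsf12a, the receptor of the cytokine TWEAK, was one of the more abundant genes just under the 2-fold limit in 1 library, at 453.2, 437.9, 445.4 and 509.1 CPM in members and ratios of 1.33, 1.07, 1.10 and 0.87. Thbs1, a matricellular protein known as an early gene, was low and differed between libraries, at 45.68, 4.867, 25.8 and 3.927 CPM in members and 24.2, 1.109, 7.427 and 1.711 CPM in the contrast. Tnfrsf12a, chosen after its values were seen, was 2-fold higher in all 4 libraries among female barcodes and not among male barcodes.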
